A study of Mus musculus with 16 samples.

Results

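The 10 genes described here make and remove reactive oxygen: Nox4, Cybb and Cyba of the NADPH oxidases, the superoxide dismutases Sod1, Sod2 and Sod3, and the antioxidant enzymes Cat, Gpx3, Hmox1 and Nqo1. They were chosen by name, with earlier results of these data known, from a table of counts for 55573 genes, each matched 1 gene ID, and all 10 were among the 16857 genes that passed the filter on low counts. The counts came from poly(A) RNA of the heart apex of 16 male mice in 4 groups of 4. All mice were wild-type pups that received an adeno-associated virus on postnatal day 1. The virus carried either GFP (AAV9-cTNT-GFP) or the long noncoding RNA Cardinal (AAV9-cTNT-CARDINAL), in both cases behind the cTNT promoter, which is active in cardiomyocytes. Mice then underwent sham surgery or transverse aortic constriction (TAC), which loads the left ventricle with pressure, and the apex was collected 4 weeks later. Groups are named by virus and surgery, as in AAV9-GFP sham. The numbers of the mice were not used to pair them. No strain and no age at surgery are given in the sources used here, and there was no group without a virus.

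Reactive oxygen is a by-product of respiration in mitochondria and a deliberate product of the NADPH oxidases. These membrane enzymes pass electrons from NADPH to oxygen, and the small subunit p22phox, made by Cyba, stabilizes several of them. Superoxide dismutases turn superoxide into hydrogen peroxide, SOD1 in the cytosol, SOD2 in the mitochondrial matrix and SOD3 outside the cell, and catalase and the glutathione peroxidases remove the peroxide. Hmox1 and Nqo1 are classical targets of NRF2, the transcription factor that is freed from KEAP1 under oxidative or electrophilic stress. In hearts under pressure load, NOX4 and the NOX2 enzyme of phagocytes have been studied as sources of oxidants.

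Libraries held between 16441997 and 21904589 counts, and all but 1 held at least 21525012. Cardinal is listed as Gm12295 and was between 3.42 and 7.24 CPM (counts scaled to the size of the library) in the 8 AAV9-GFP hearts. It was between 26.2 and 40 CPM in AAV9-Cardinal sham hearts, and at 18.3, 19.5, 20.6 and 93.9 CPM in AAV9-Cardinal TAC hearts. The highest of these, replicate 1, also stood apart in 6 fibroblast markers (Col1a1, Col3a1, Postn, Pdgfra, Dcn and Tcf21), which summed to 811 CPM there and to 439 to 477 CPM in the other 3 mice of its group. That sum was 754 to 977 CPM in AAV9-GFP TAC hearts and 431 to 495 CPM in the 8 sham hearts, and the results that rest on replicate 1 are therefore given with and without it. Cardiomyocyte markers (Myh6, Tnnt2, Tnni3, Actc1, Ryr2 and Actn2) summed to 28047 to 38940 CPM over the 16 hearts, as the label of heart tissue would have it.

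In AAV9-GFP hearts, TAC raised Nox4 and Sod3 and lowered Sod1 and Sod2, as set out in the values below. The stretches just before the start sites of Nox4, Sod1 and Sod2 are shown because these genes moved, and because RefSeq (GRCm38.p6) holds a start for them. Each line gives the 250 bases before the start, 5′ to 3′ on the strand of the gene. Capitals mark matches, on either strand, to 4 motifs: the antioxidant response element to which NRF2 binds (TGACNNNGC), the AP-1 site (TGANTCA), the GC box bound by SP1 (GGGCGG) and the TATA box (TATAAA). The last bases of the Sod1 and Sod2 lines lie in the first exon of GENCODE transcripts. Both Nox4 and Sod2 also have a GENCODE transcript that begins further upstream, so their lines lie wholly inside the annotated gene and precede only the RefSeq start used here.
Nox4, chr7:87246399-87246648, plus strand: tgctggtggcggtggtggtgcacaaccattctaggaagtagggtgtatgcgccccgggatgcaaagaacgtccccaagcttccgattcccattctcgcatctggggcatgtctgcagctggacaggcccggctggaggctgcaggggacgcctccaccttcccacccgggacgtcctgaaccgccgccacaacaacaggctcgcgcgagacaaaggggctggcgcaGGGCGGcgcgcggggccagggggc
Sod1, chr16:90220512-90220761, plus strand: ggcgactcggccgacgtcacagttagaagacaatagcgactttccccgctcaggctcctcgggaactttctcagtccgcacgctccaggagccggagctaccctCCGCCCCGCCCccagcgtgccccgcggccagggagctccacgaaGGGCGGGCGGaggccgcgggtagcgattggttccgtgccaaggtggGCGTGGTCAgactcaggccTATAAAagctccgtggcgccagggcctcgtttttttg
Sod2, chr17:13007589-13007838, plus strand: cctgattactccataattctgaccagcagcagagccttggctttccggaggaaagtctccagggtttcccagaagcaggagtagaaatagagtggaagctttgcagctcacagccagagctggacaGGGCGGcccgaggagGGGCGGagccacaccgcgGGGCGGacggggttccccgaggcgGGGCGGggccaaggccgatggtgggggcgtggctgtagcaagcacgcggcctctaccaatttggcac
The Nox4 stretch held 1 GC box, 24 to 19 bases before the start. Sod1 held 4 GC boxes in 2 overlapping pairs, a TATA box 37 to 32 bases before the start, and an antioxidant response element on the minus strand 56 to 48 bases before the start. Sod2 held 4 GC boxes and no TATA box. Of the 8 genes with an entry (Sod3 and Hmox1 had none), the antioxidant response element was found within these 250 bases only before Sod1, the AP-1 site only before Cybb, and a GC box before 7. Sites further upstream were not searched for. Among 32851 RefSeq promoters of this length, 10.2% held the response element, 6.75% the AP-1 site, 32.7% a GC box and 12.4% a TATA box. A match is a run of letters, and the counts of RNA do not show that a factor binds there.

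Levels of the 10 genes were first ordered per length, as CPM per kilobase of the longest principal transcript, in AAV9-GFP sham hearts. Sod1 was highest at 181 ± 12.4 (SD, n = 4), above every value of the next gene. Gpx3 (74 ± 2.8), Sod2 (73.9 ± 3.39) and Cat (69.2 ± 7.27) followed, and the ranges of these 3 overlapped from 1 to the next. Nqo1 came next at 22.2 ± 4.18 and Cyba at 13.9 ± 1.05. Sod3, the extracellular enzyme, stood at 5.76 ± 0.55, Hmox1 at 4.26 ± 0.219 and Cybb at 1.13 ± 0.207, and none of these overlapped its neighbour. Nox4 was the lowest member, at 0.134 ± 0.0625. It rested on 7 to 18 counts in each AAV9-GFP sham heart, still above the 3 counts used as a floor of detection, which correspond to 0.126 to 0.195 CPM depending on the library. The mitochondrial and cytosolic dismutases rested on at least 1846 counts in each mouse, so the precision behind them was far higher. The order above depends on the lengths used, 641 bases for Sod1 and 5861 bases for Sod2. In CPM, Sod2 (mean 433) was above Sod1 (mean 116) in AAV9-GFP sham hearts. Which transcripts of these genes were expressed was not tested. All later levels are CPM, not corrected for length, and are compared only within a gene.

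**Figure D1:**
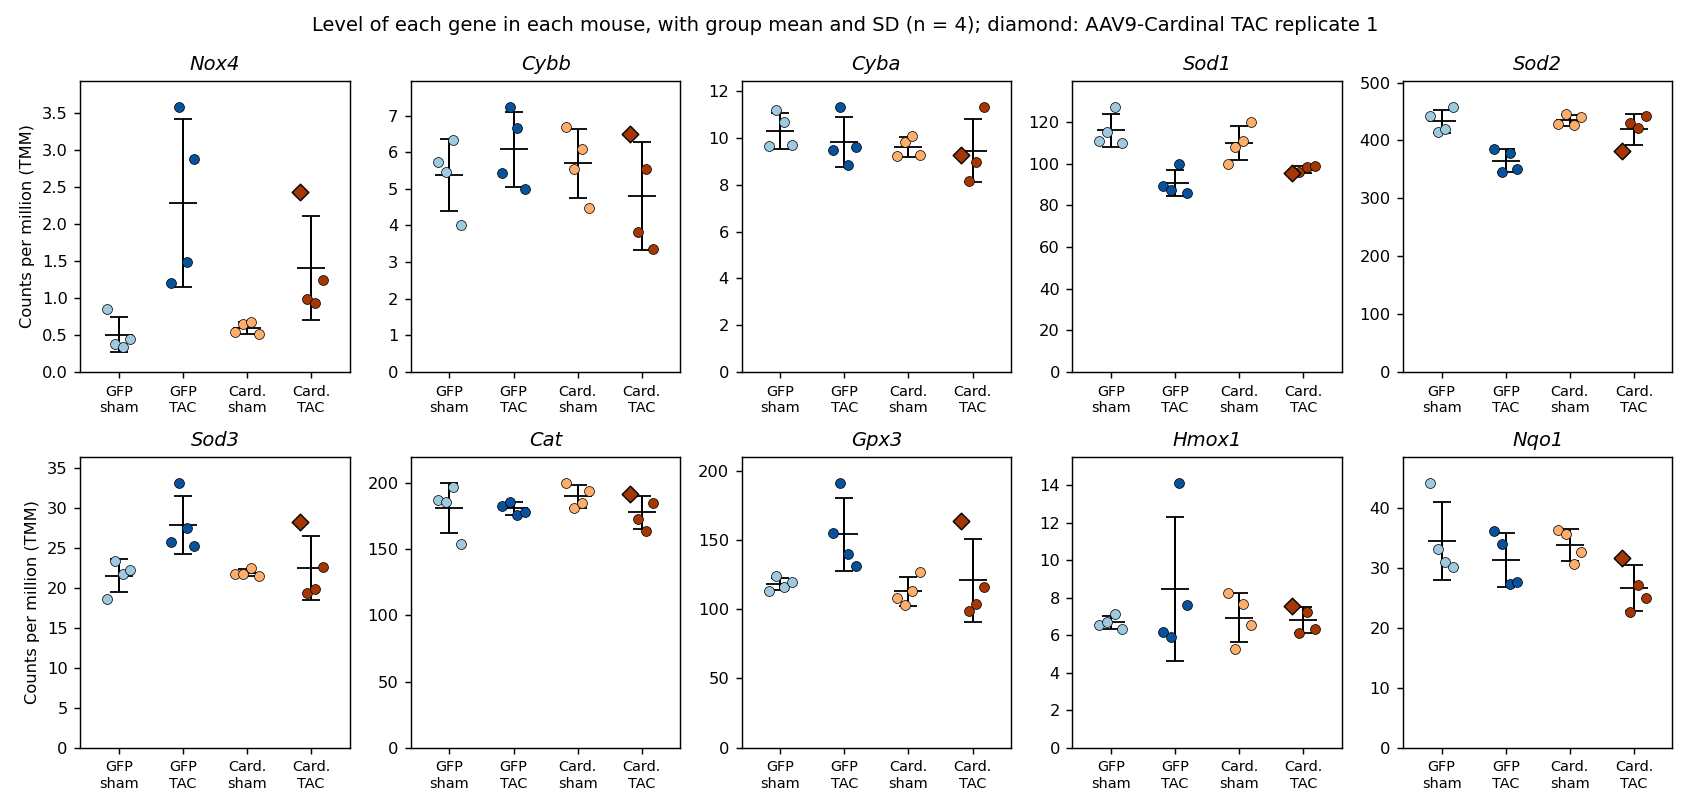
CPM (TMM-normalized, y axis from 0) of the 10 genes in each of the 16 mice, by group, with the group mean and SD (n = 4). AAV9-Cardinal TAC replicate 1 is drawn as a diamond, and its Nox4 (2.43), Sod3 (28.2) and Gpx3 (164) lie above the other 3 mice of that group, while its Sod2 (382) lies below them.

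The first comparison asked what TAC did to these genes in hearts with the control virus. Nox4 encodes a NADPH oxidase that is active without cytosolic activators and mainly releases hydrogen peroxide. It was at 0.851, 0.384, 0.343 and 0.44 CPM in AAV9-GFP sham hearts and at 1.2, 3.57, 1.49 and 2.87 CPM in AAV9-GFP TAC hearts. Every TAC heart was above every sham heart, and the TAC hearts themselves spread widely, with replicates 3 and 7 well above replicates 1 and 4. The log2 fold change was 2.16 (SE 0.41, 95% interval 1.28 to 3.04), a 4.47-fold rise, with an adjusted p of 0.0022 in edgeR's quasi-likelihood test. Nox4 lies at chr7:87246096-87398710 (GRCm38).

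The dismutases moved in different directions. Sod1 (chr16:90220754-90226329) was at 111, 115, 127 and 110 CPM in sham and at 89.3, 87.4, 99.9 and 86.1 CPM in TAC hearts, with no overlap. Its log2 fold change was -0.35 (SE 0.063, edgeR adjusted p = 0.0013), a level 0.783 times that of sham. Sod2 (chr17:13006846-13040063) was at 443, 414, 419 and 457 CPM in sham and at 385, 345, 378 and 351 CPM in TAC hearts, again with no overlap. Its log2 fold change was -0.25 (SE 0.052, edgeR adjusted p = 0.0041), or 0.842 times sham. Sod3 (chr5:52363791-52371418), whose protein is held in the matrix around cells, went the other way. It was at 18.6, 23.4, 21.7 and 22.3 CPM in sham and at 25.8, 33.1, 27.5 and 25.2 CPM in TAC hearts, all of the latter above the former. The log2 fold change was 0.38 (SE 0.11, edgeR adjusted p = 0.032), a 1.3-fold rise that was the least certain of the 4. Leaving out AAV9-GFP sham replicate 1 or 3 gave Sod3 an adjusted p of 0.098 or 0.067, and leaving out AAV9-GFP TAC replicate 3 or 4 gave 0.11 or 0.051. Of the 50-base stretches of the annotated Sod2 transcripts, 21% also occur in other genes, as do 3.42% for Sod1 and 0.714% for Nox4, so a part of their reads could be counted elsewhere or lost, depending on a counting step that is not given in the sources used here.

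Gpx3, the glutathione peroxidase secreted into plasma, was at 113, 124, 116 and 120 CPM in sham and at 155, 191, 140 and 131 CPM in TAC hearts. These values did not overlap, yet they spread widely under TAC, and the log2 fold change of 0.39 (SE 0.14) missed the threshold with an edgeR adjusted p of 0.074. With AAV9-Cardinal TAC replicate 1 left out of the shared fit, that p was 0.015, and with DESeq2, which called 17.2% of all genes, it was 0.039. The other members did not pass. Cybb, the catalytic subunit of the phagocyte oxidase, was at 4.01 to 6.32 CPM in sham and 5 to 7.22 CPM in TAC hearts (log2 fold change 0.18, 95% interval -0.25 to 0.60). Cyba was at 9.65 to 11.2 and 8.84 to 11.3 CPM (-0.071, interval -0.28 to 0.14). Cat, the peroxisomal catalase, had a mean of 181 CPM in both groups (-0.00065, interval -0.15 to 0.15). Nqo1, a quinone reductase, was at 30.1 to 44.1 and 27.3 to 36.2 CPM (-0.14, interval -0.42 to 0.14). Hmox1, the inducible heme oxygenase, was at 6.17, 5.92, 14.1 and 7.61 CPM in TAC hearts against 6.35 to 7.15 in sham. Its log2 fold change of 0.34 (interval -0.14 to 0.82) rested on replicate 4 alone, and was -0.025 without that mouse.

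In all, 4 of 10 members were called, 2 higher and 2 lower. Of all genes tested, 17.4% were called in this comparison, 8.49% higher and 8.92% lower. Mice of the 2 groups did not overlap for 5 of 10 members, against 20.3% of all tested genes. The median absolute log2 fold change was 0.29 over the members and 0.17 over all tested genes. In a test on single values, the exact permutation of 4 mice against 4, each of the 5 members without overlap had p = 0.0286, the smallest that 70 labelings can give. Adjusted over the 40 tests of members and group pairs, that p became 0.163, so that test could call none.

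Cell markers moved in this comparison too. The fibroblast sum rose from 436 to 495 CPM in sham to 754 to 977 CPM in TAC hearts, where 3 of its 6 genes were called higher, and the cardiomyocyte sum went from 35061 to 38940 down to 28047 to 34024 CPM, where 4 of its 6 genes were called lower. In this comparison Nox4, Sod3 and Gpx3 were higher in the group with more fibroblast marker RNA, and Sod1 and Sod2 were lower in it. The AAV9-Cardinal TAC mice other than replicate 1 had fibroblast sums of 439 to 477 CPM. Their Nox4 (0.931 to 1.24 CPM) was still above every sham heart, and their Sod1 (95.8 to 98.8 CPM) below every sham heart. Their Sod2 and Sod3 lay within the range of the sham hearts, and their Gpx3 (98.5 to 116 CPM) did not exceed it. In whole tissue, fewer cells of a type and less RNA per cell cannot be told apart, and the part of cell makeup in these results was not tested. Macrophage and monocyte markers summed to 127 to 153 CPM in sham and 136 to 188 CPM in TAC hearts with 0 of 9 genes called. The endothelial sum was 415 to 507 CPM in sham and 484 to 569 CPM in TAC hearts, with 1 of 5 genes called higher. For smooth muscle and pericytes it was 518 to 574 and 535 to 565 CPM, again with 1 of 5 called higher. Red blood cell markers (0 of 5 called) varied from 423 to 1041 CPM, and the adipocyte sum was at or below 0.236 CPM in these 2 groups. Neutrophil markers stayed at or below 4.65 CPM in every heart of these 2 groups, and Ly6g, their defining marker, had 0 counts in all mice.

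**Figure D2:**
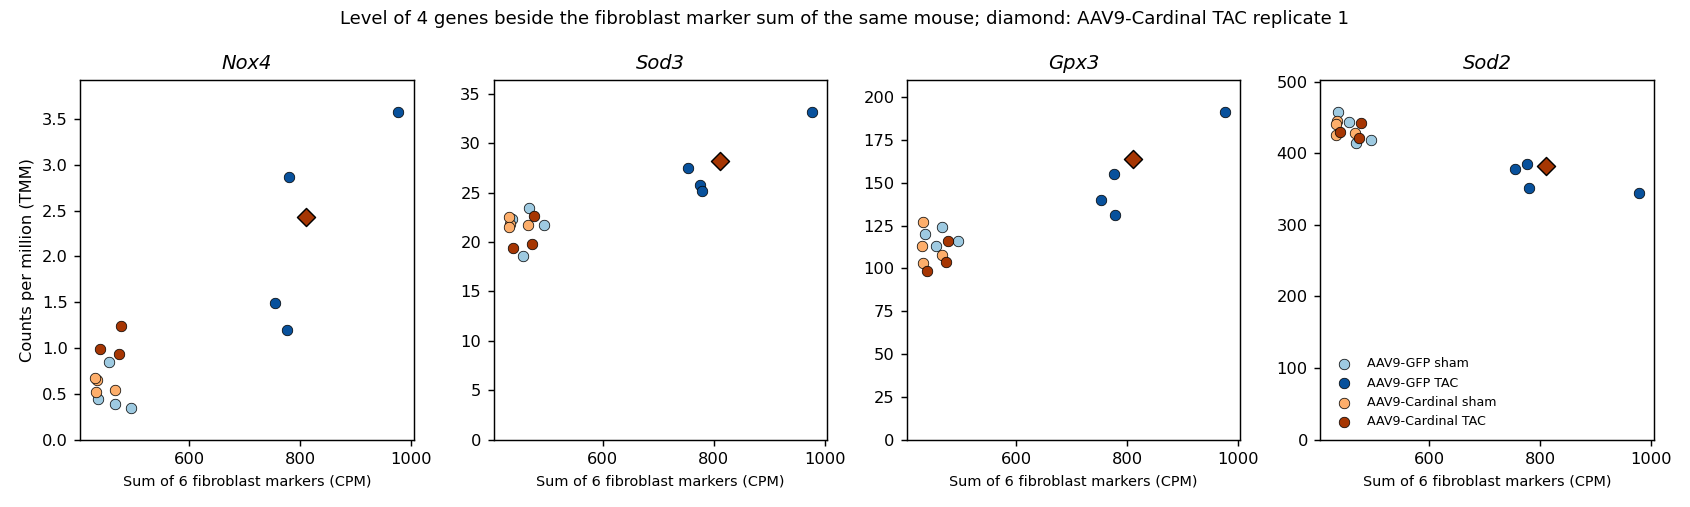
CPM of Nox4, Sod3, Gpx3 and Sod2 (y axes from 0) in each of the 16 mice against the summed CPM of 6 fibroblast markers in the same mouse (x axis). The 4 AAV9-GFP TAC mice and AAV9-Cardinal TAC replicate 1 (diamond) lie at 754 CPM or more on the x axis and all other mice at 495 CPM or less.

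The second comparison asked the same of hearts with the Cardinal virus. None of the 10 members passed (0 with edgeR and 0 with DESeq2, 3 at an unadjusted p under 0.05, as were 21.8% of all genes), while 6.48% of all tested genes were called, 3.1% higher and 3.38% lower. The 3 members with an unadjusted p under 0.05 were Nox4, Sod1 and Nqo1. Nox4 was at 0.542, 0.651, 0.673 and 0.519 CPM in AAV9-Cardinal sham and at 2.43, 0.987, 0.931 and 1.24 CPM in AAV9-Cardinal TAC hearts. All TAC hearts were above all sham hearts, with replicate 1 far above the rest. The log2 fold change was 1.22 (SE 0.42, interval 0.32 to 2.12, edgeR adjusted p = 0.10), and without replicate 1 it was 0.81 (SE 0.41, adjusted p = 0.24). Sod1 was at 99.9, 108, 111 and 120 CPM in sham and at 95.5, 95.8, 98.2 and 98.8 CPM in TAC hearts, where it varied little between mice. Its log2 fold change was -0.17 (interval -0.31 to -0.040, edgeR adjusted p = 0.11), and -0.16 without replicate 1. Nqo1 was at 36.3, 35.7, 30.6 and 32.6 CPM in sham and at 31.6, 22.7, 27.1 and 24.9 CPM in TAC hearts, which overlapped only through replicate 1. The log2 fold change was -0.35 (interval -0.63 to -0.065, edgeR adjusted p = 0.14) and, without replicate 1, -0.44 (adjusted p = 0.060).

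Sod2 was at 429, 445, 426 and 441 CPM in AAV9-Cardinal sham and at 382, 430, 422 and 442 CPM in AAV9-Cardinal TAC hearts (log2 fold change -0.055, interval -0.17 to 0.055). Only replicate 1 lay in the range of the AAV9-GFP TAC hearts, and without it the value was -0.0099. Sod3 was at 21.7, 21.8, 22.5 and 21.5 CPM in sham and at 28.2, 19.4, 19.8 and 22.6 CPM in TAC hearts (0.041, interval -0.20 to 0.28). Without replicate 1 its log2 fold change was -0.083. Gpx3 was at 108, 103, 113 and 127 CPM in sham and at 164, 98.5, 104 and 116 CPM in TAC hearts (0.097, interval -0.21 to 0.40), and at -0.085 without that mouse. Cybb had a log2 fold change of -0.25, and without replicate 1 of -0.43 (interval -0.86 to -0.0026, edgeR adjusted p = 0.21). For Cat, Cyba and Hmox1 the values were -0.090, -0.024 and -0.026, and without that mouse -0.12, -0.012 and -0.078. Members whose mice did not overlap between these groups were Nox4 and Sod1, 2 of 10, against 13.7% of all tested genes. Without replicate 1 they were 3 of 10 with Nqo1 added, against 24.1%, and 8.41% of the genes tested were then called, none of them a member.

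**Figure D3:**
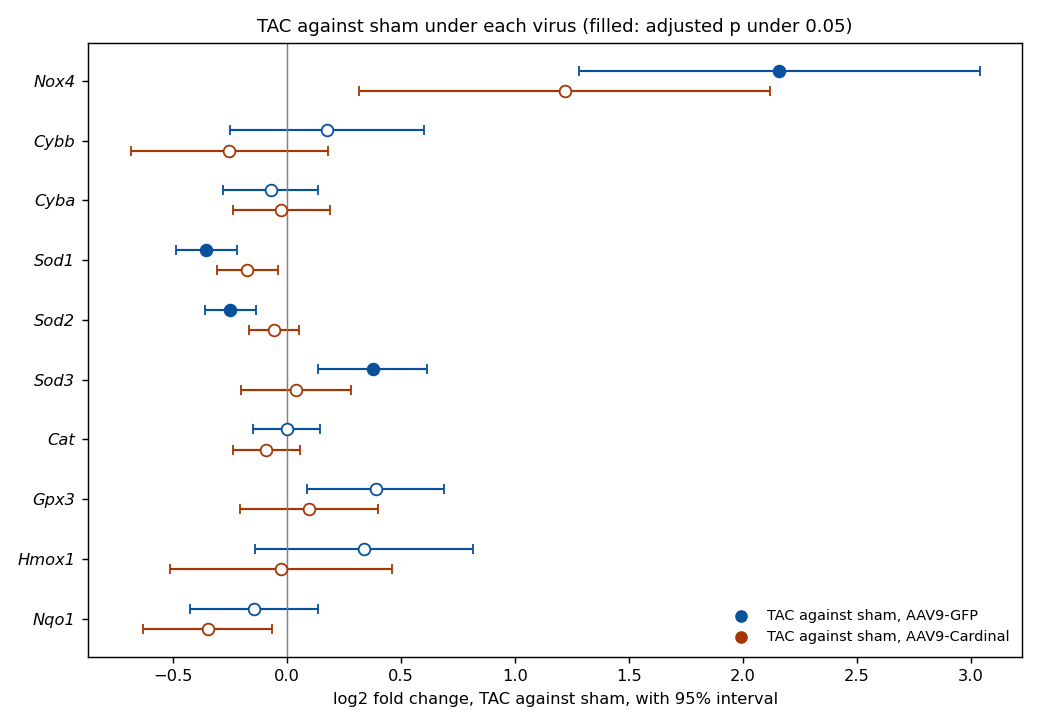
Log2 fold change of each gene, TAC against sham, with its 95% interval, in AAV9-GFP hearts (blue) and AAV9-Cardinal hearts (brown); filled points passed an adjusted p of 0.05. Nox4 (2.16), Sod3 (0.38), Sod1 (-0.35) and Sod2 (-0.25) are filled in AAV9-GFP hearts and no gene is filled in AAV9-Cardinal hearts.

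A change past the threshold under 1 virus and not under the other does not show that the responses differ, so the difference of the responses was tested itself. No member passed with edgeR (0 called, 1 at an unadjusted p under 0.05, as were 10.2% of all genes), and of all tested genes 0.0119% did. DESeq2 called no member either, but it gave no adjusted p to Nox4, Cybb, Cyba, Sod3 and Hmox1. Of 16857 genes it called 92 higher and 19 lower. Sod2 came closest with a difference of 0.19 on the log2 scale (interval 0.037 to 0.35, edgeR adjusted p = 0.39), its level under TAC being nearer to sham in AAV9-Cardinal hearts. For Nox4 the difference was -0.94, with a wide interval of -2.24 to 0.36 and -0.64 when AAV9-GFP TAC replicate 3 was left out, for Sod3 -0.33 (-0.68 to 0.0067) and for Sod1 0.18 (-0.0082 to 0.37). Without replicate 1, 0.463% of genes passed and still no member, at -1.35 for Nox4 (adjusted p = 0.27), -0.46 for Sod3 (0.12), 0.23 for Sod2 (0.12) and -0.48 for Gpx3 (0.15).

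In sham hearts, the viruses were compared without the load. No member passed (0 with edgeR, 0 with DESeq2, and 0 at an unadjusted p under 0.05, as were 2.59% of all genes) and 0.0119% of all genes did. All 10 members overlapped between these groups, as did all but 2.36% of tested genes. The largest absolute log2 fold change was that of Nox4, 0.24 with an interval of -0.80 to 1.29, as wide as 7 to 18 counts a mouse allow. It was 0.62 without AAV9-GFP sham replicate 1, and 0.13 or 0.098 without replicate 2 or 3 of that group. For Sod2 the interval was narrow, -0.10 to 0.12 around 0.0062. Without AAV9-Cardinal TAC replicate 1 in the shared fit, 0.0176% of genes and no member passed.

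In TAC hearts, no member differed between the viruses at the threshold in edgeR, where 0.101% of all genes did. DESeq2 called 1, Sod2, and 2.4% of all genes, and gave Nox4 no adjusted p. In edgeR, 3 members and 15% of all genes had an unadjusted p under 0.05. Those 3 were Sod2, higher with Cardinal by 0.20 (SE 0.052, adjusted p = 0.10), Sod3, lower at -0.31 (SE 0.11, adjusted p = 0.21), and Gpx3, lower at -0.36 (SE 0.14, adjusted p = 0.25). Nox4 had a log2 fold change of -0.70 (interval -1.46 to 0.058), and of -0.395 without AAV9-GFP TAC replicate 3. Each member overlapped between the 2 groups, against 6.77% of all genes that did not.

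DESeq2 called Sod2 with all mice kept, while in edgeR members were called only without AAV9-Cardinal TAC replicate 1. The Nox4, Sod2, Sod3 and Gpx3 of that mouse are set out first. They all lay within the range of the AAV9-GFP TAC hearts. The mouse was singled out in these same data, so leaving it out tends to set the groups apart, and the calls below are a description only. Without this mouse, 3 of 10 members were called while 3.13% of all tested genes were. Sod2 was higher in AAV9-Cardinal TAC hearts (0.24, SE 0.048, edgeR adjusted p = 0.016), at 422 to 442 CPM against 345 to 385. Sod3 was lower (-0.43, SE 0.098, adjusted p = 0.030), at 19.4 to 22.6 CPM against 25.2 to 33.1. Gpx3 was lower as well (-0.54, SE 0.11, adjusted p = 0.020), at 98.5 to 116 CPM against 131 to 191. Nox4, at 0.931 to 1.24 CPM against 1.2 to 3.57, had -1.11 (SE 0.35, adjusted p = 0.099). Of the members not called in either fit, Cybb went from -0.34 to -0.52, Nqo1 from -0.24 to -0.33, Hmox1 from -0.31 to -0.36, Cat from -0.020 to -0.055, Cyba from -0.055 to -0.045 and Sod1 from 0.099 to 0.11. Mice of the 2 groups then did not overlap for 4 of 10 members, these 3 and Nqo1, against 17.1% of all tested genes. With that mouse left out, 18% of genes and 5 members were called for TAC in AAV9-GFP hearts, Gpx3 being the fifth. The mouse carried the highest Cardinal level of all 16 and a fibroblast sum like that of AAV9-GFP TAC hearts, and the part of either in its values was not tested.

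**Figure D4:**
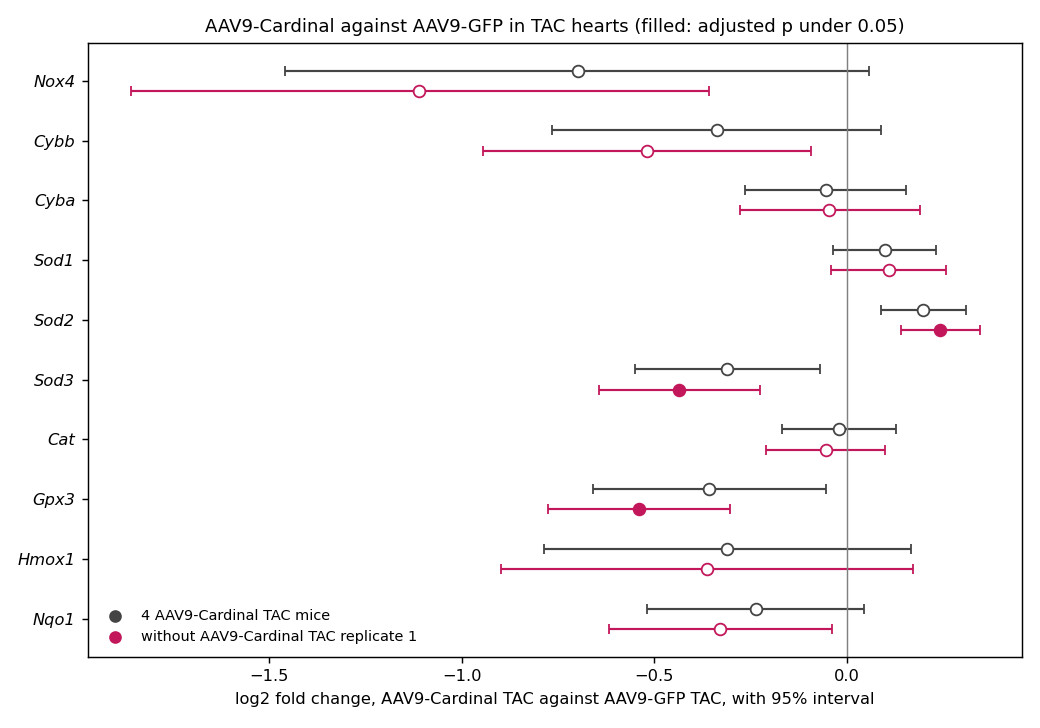
Log2 fold change of each gene, AAV9-Cardinal TAC against AAV9-GFP TAC, with its 95% interval, over all 4 AAV9-Cardinal TAC mice (grey) and without replicate 1 of that group (pink); filled points passed an adjusted p of 0.05. Sod2 (0.24), Sod3 (-0.43) and Gpx3 (-0.54) are filled only without that mouse.

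The wider redox system was followed in 7 lists of 79 genes, of which Nnt matched 2 gene IDs, and 73 of the 80 IDs were tested. Under TAC in AAV9-GFP hearts 24 of them were called, 7 higher and 17 lower, beside the 17.4% called among all genes. The median log2 fold change over these 73 was 0.0085, and 0.0050 over all tested genes. In AAV9-Cardinal hearts 9 were called, 4 higher and 5 lower, beside 6.48%. Without AAV9-Cardinal TAC replicate 1, 9 of 75 were called there, beside 8.41% of all genes.

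None of the NADPH oxidase partners passed in any comparison, with 8 of 12 tested (0 called with DESeq2 as well, and at most 1 at an unadjusted p under 0.05 in a comparison). The list holds cytosolic activators, the oxidases Nox1, Duox1 and Duox2, and other genes that act with the oxidases. Nox1 and Noxa1 had no reads in any mouse, and Noxo1 and Duox2 were at or below 0.528 CPM in every mouse. The 7 NRF2 pathway regulators, with Nfe2l2, which encodes NRF2, and Keap1, had 0 called in each comparison with edgeR, and at most 1 at an unadjusted p under 0.05. DESeq2 called 1, Bach1, for TAC in AAV9-GFP hearts. Nfe2l2 was at 78.1 ± 10.5 CPM in AAV9-GFP sham and 66.3 ± 5.57 CPM in AAV9-GFP TAC hearts (log2 fold change -0.24, SE 0.13, edgeR adjusted p = 0.24). In edgeR, Bach1, a repressor of NRF2 targets such as Hmox1, was at -0.30 (SE 0.10, adjusted p = 0.051).

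Of the other peroxidases and the SOD chaperone, 4 of 11 were called in AAV9-GFP hearts, beside 17.4% of all genes. Gpx1, the main cellular glutathione peroxidase, rose from 24.9 ± 1.06 to 36.6 ± 4.26 CPM (log2 fold change 0.55, edgeR adjusted p = 0.00021). The peroxiredoxins Prdx5 (-0.23), Prdx3 (-0.21) and Prdx2 (-0.14) fell. In AAV9-Cardinal hearts Gpx1 alone passed (0.28, edgeR adjusted p = 0.044), beside 6.48% of all genes. Without replicate 1 none did, beside 8.41%.

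The glutathione and thioredoxin systems held the largest group of falling genes. In AAV9-GFP hearts 10 of 21 tested genes were called, 1 higher and 9 lower, and the median log2 fold change was -0.11. Of all genes, 17.4% were called, 8.49% higher and 8.92% lower, and the list was chosen with earlier results known. The glutathione transferases, which conjugate glutathione to reactive compounds, led the list. Gsta3 fell from 7.09 ± 0.538 to 4.03 ± 1.23 CPM (-0.82), Gstk1 from 45 ± 5.31 to 27.3 ± 2.08 CPM (-0.72), Gstt1 from 7.99 ± 0.449 to 4.94 ± 1.18 CPM (-0.69) and Gstm2 from 68.4 ± 5.49 to 43 ± 3.21 CPM (-0.67), with edgeR adjusted p-values of 0.0069, 8.1e-05, 0.011 and 5.5e-05. The gene that rose was Slc7a11 (0.44), the cystine importer, named after its value was seen. In AAV9-Cardinal hearts 3 of 21 were called, beside 6.48% of all genes. They were Gstm1 (-0.44), Gstm2 (-0.43) and Slc7a11 (0.43), also named after their values were seen. Without replicate 1 these were called (-0.41, -0.46 and 0.45) and so was Mgst3 (0.23), beside 8.41% of all genes. Gsta3 over all 4 AAV9-Cardinal TAC mice was at 0.31 (SE 0.18, edgeR adjusted p = 0.35). The Gstm and Gsta genes have close copies among which short reads can be split, so single members are less certain than the group.

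Among genes for heme, iron and metal handling, 3 of 8 were called in AAV9-GFP hearts, beside 17.4% of all genes. Mt2, a metallothionein, rose from 16.6 ± 5.54 to 44.9 ± 19.4 CPM (1.43, edgeR adjusted p = 0.0023). Slc40a1, the iron exporter ferroportin, fell from 16.3 ± 3.22 to 8.98 ± 2.07 CPM (-0.86, adjusted p = 0.0019), and Fth1, the ferritin heavy chain, fell by 0.39 on the log2 scale (adjusted p = 0.00025). In AAV9-Cardinal hearts Mt2 (1.05), Slc40a1 (-0.71) and Mt1 (0.75), the last named after its value was seen, were called, beside 6.48% of all genes. They were also called without replicate 1 (1.13, -0.64 and 0.89), beside 8.41%. Of the genes for NADPH supply, 3 of 9 were called in AAV9-GFP hearts, again beside 17.4% of all genes. G6pdx (0.38) and Pgd (0.22), both of the pentose phosphate pathway, rose, and Idh2 (-0.34), the mitochondrial NADP-dependent isocitrate dehydrogenase, fell. In AAV9-Cardinal hearts none of the 9 was called by edgeR or DESeq2, with 2 at an unadjusted p under 0.05, nor was any called by edgeR without replicate 1.

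Other sources of reactive oxygen and nitric oxide had 4 of 9 tested genes called in AAV9-GFP hearts, beside 17.4% of all genes. The monoamine oxidases, which release hydrogen peroxide at the outer mitochondrial membrane, split. Maob fell from 57.8 ± 3.69 to 28.5 ± 1.6 CPM (-1.02, edgeR adjusted p = 4.9e-06) and Maoa rose from 2.54 ± 0.356 to 3.58 ± 0.156 CPM (0.50, adjusted p = 0.044). Nos2, the inducible nitric oxide synthase, rose from 4.39 ± 0.945 to 7.63 ± 1.48 CPM (0.80, adjusted p = 0.011), and the aldehyde oxidase Aox1 fell (-0.63, adjusted p = 0.0021). In AAV9-Cardinal hearts Maob (-0.44) and Aox1 (-0.59) were called, beside 6.48% of all genes. They were also called without replicate 1 (-0.36 and -0.69), beside 8.41%. Maob was also the 1 gene of all lists that differed between the viruses in TAC hearts, at 40.4 ± 5.11 CPM with Cardinal and 28.5 ± 1.6 CPM with GFP (0.50, SE 0.083, edgeR adjusted p = 0.039). Without AAV9-Cardinal TAC replicate 1 there were 5 such genes, Maob (0.59), Idh2 (0.28), Gstk1 (0.44) and Gsta3 (0.89) higher with Cardinal and Gpx1 (-0.37) lower, and in that fit the response of Maob and Idh2 to TAC differed between the viruses (0.66 and 0.37, edgeR adjusted p = 0.0080 and 0.048). That fit called 3.13% of all genes between viruses in TAC hearts and 0.463% for the difference of responses, and the mouse was singled out in these same data.

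**Figure D5:**
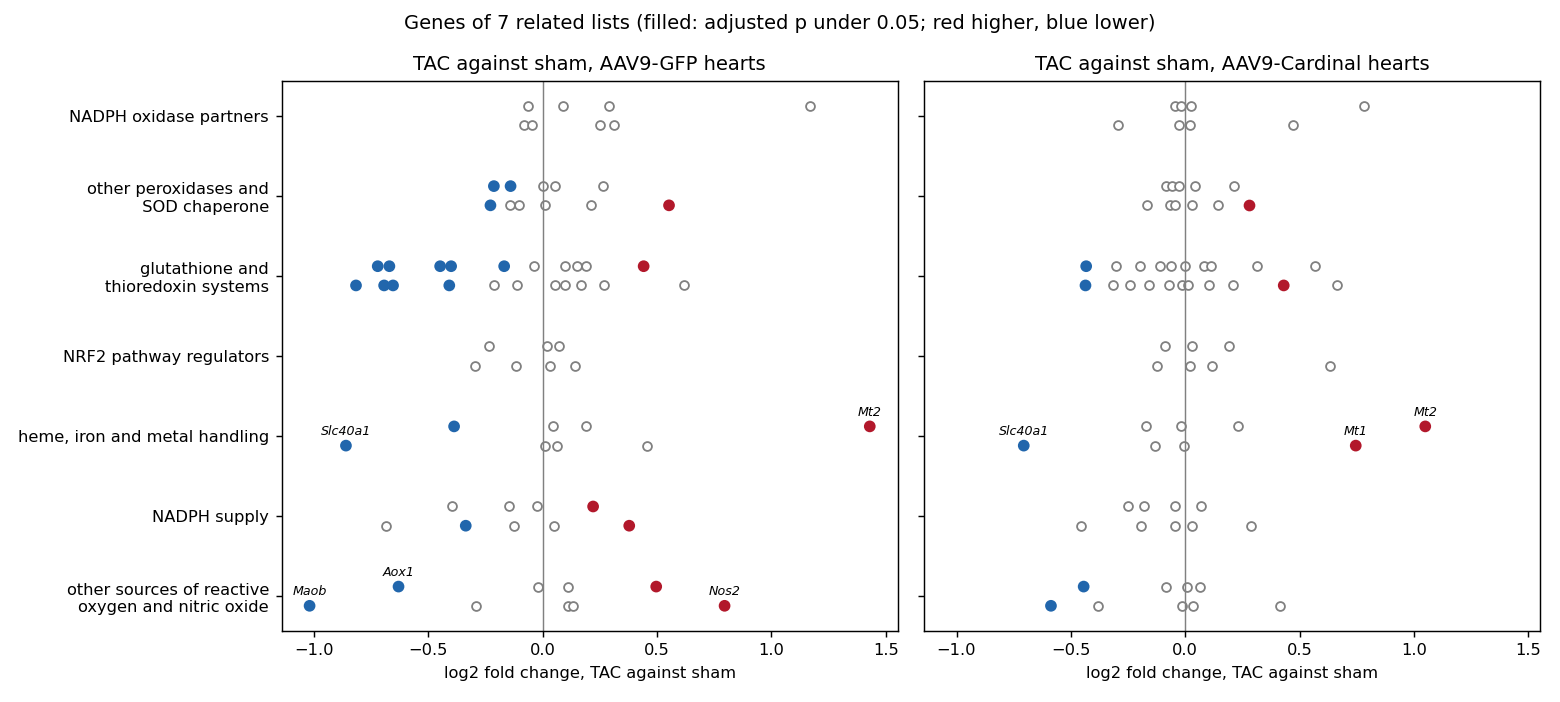
Log2 fold change, TAC against sham, of the tested genes in 7 redox lists (rows) in AAV9-GFP hearts (left) and AAV9-Cardinal hearts (right); filled points passed an adjusted p of 0.05, red higher and blue lower. There are 24 filled points on the left, 9 of them blue in the glutathione and thioredoxin row, and 9 filled points on the right.

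The genes whose profile over the 16 mice was closest to each called member were found by the root-mean-square difference of centred log2 CPM, among 14270 other genes averaging 1 CPM or more. For Nox4, whose own SD was 0.94, these were Dkk3 (0.39), Col5a2 (0.41) and Fstl1 (0.43). Sod3 (SD 0.22) was nearest to Lhfp (0.075), Prmt2 (0.11) and Nlgn2 (0.11). Sod2 (SD 0.12) was nearest to Idh3a (0.042), Slc25a3 (0.044) and Slc25a12 (0.045), a subunit of a citric acid cycle enzyme and a pair of mitochondrial carriers. Sod1 (SD 0.16) was nearest to Gm10250 (0.057), Atp5j (0.059) and Bloc1s1 (0.065), of which Atp5j encodes a subunit of ATP synthase. These points share libraries and group differences, so the likeness is a description only.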

How the data were processed

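RNA of the heart apex (poly(A) libraries, single-end reads of 50 bases) was measured in 16 mice, grouped by their labels. The table the authors deposited holds raw, unscaled counts of reads for each Ensembl gene, 1 column a mouse. The submitters' processing notes name FastQC, HISAT2 2.1.0, edgeR 3.26.1 and GRCm38, while the counting program, annotation, use of strand and treatment of reads with several matches are not given in the sources used here. GENCODE M21 named 55394 of 55573 genes.

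The main tool was edgeR 4.0.16 in R 4.3.3, with TMM normalization, its expression filter (16857 genes) and 1 quasi-likelihood fit of all 16 mice without covariates, tested on simulated data. Genes were called at p under 0.05 after Benjamini-Hochberg adjustment over all tested genes. TMM CPM of single genes was also compared by a two-sided exact permutation test. Replicates differed beyond counting noise (chi-square per degree of freedom 5.1 to 14.9), and p-values measure the spread between these mice, for which no separate treatment is stated. Floors cover counting error only.

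The members and lists were chosen with earlier results of these data known. Of each redox list, up to 4 called genes with the largest change under TAC in AAV9-GFP hearts are named, with any called between viruses. Profiles are log2 CPM with a prior count of 2, and the 3 closest genes are given. Alternatives were DESeq2 1.42.0, RLE size factors, no filter or a stricter filter on low counts, a robust spread, fits on the 8 mice of a comparison, mitochondrial genes left out, a GC offset, a replicate block, and each mouse left out. List counts and overlaps without AAV9-Cardinal TAC replicate 1 were added after seeing the data.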

Additional observations from a re-analysis of the deposited data

Results flagged for a closer look

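Among 72 groups of 4 mice (10 genes and 8 marker sums in 4 groups), 6 had a mouse whose gap to its nearest neighbour took a larger share of the range of the group than Dixon's 95% critical value for 4 values allows. Chance flags about 1 in 20 groups, or 3.6 of 72. None was a level of the 10 genes. Of the fibroblast sums, 3 were concerned: AAV9-Cardinal TAC replicate 1 at 811 CPM (others 439 to 477), AAV9-GFP TAC replicate 3 at 977 CPM (others 754 to 779) and AAV9-Cardinal sham replicate 1 at 466 CPM (others 431 to 433). AAV9-GFP TAC replicate 3 was also the mouse with the highest Nox4 (3.57 CPM), Sod3 (33.1 CPM) and Gpx3 (191 CPM). The neutrophil sum of AAV9-Cardinal sham replicate 3 was 3.89 CPM (others 0.649 to 1.12). The smooth muscle and pericyte sum of AAV9-Cardinal TAC replicate 6 was 491 CPM (others 538 to 545). The adipocyte sum of AAV9-GFP sham replicate 1 was 0.236 CPM, with the other 3 mice at 0.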

How the results depend on the processing

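The count of members called for TAC in AAV9-GFP hearts was 3 to 5 over all alternatives (4 as reported), and over the fits with 1 mouse left out it was also 3 to 5. Nox4, Sod1 and Sod2 were called in every one of these fits, and Sod3 was lost without a filter on low counts (adjusted p = 0.060), with the replicate block (0.056) and without each of 4 mice named beside it. No alternative called a member for TAC in AAV9-Cardinal hearts, between viruses in sham hearts, or for the difference of TAC responses. For that difference DESeq2 gave no adjusted p to Nox4, Cybb, Cyba, Sod3 and Hmox1. For the viruses in TAC hearts the count was 1 with DESeq2 and 0 to 3 with 1 mouse left out, the 3 being without AAV9-Cardinal TAC replicate 1. Without that mouse, 12 pairs of member and comparison showed no overlap, against 7. Over all genes, those without overlap went from 13.7% to 24.1% for TAC in AAV9-Cardinal hearts and from 6.77% to 17.1% between viruses in TAC hearts. Between viruses in TAC hearts, 5 genes of the redox lists were then called, against 1, and 3.13% of all genes, against 0.101%. With all mice, DESeq2 also called 5 genes of the lists, not all of them the same, and 2.4% of all genes.

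The numbers of the mice were not taken as pairs, since correlations of same-numbered mice (16 pairs) lay between -0.040 and 0.21 and 5 of 13 mice were closest to their own number. The 4 pairs above 0.1 were all among the 6 pairs of mice numbered 1. Numbers 5, 6 and 7 each belong to a single mouse, so a replicate block gives these mice their own terms and they add nothing to its comparisons. AAV9-Cardinal TAC then rests on replicates 1 and 4 only, and AAV9-GFP TAC on replicates 1, 3 and 4. Fewer calls in that fit cannot be told apart from the mice it sets aside. That fit called 3 members for TAC in AAV9-GFP hearts and 0 in the other comparisons. Of the list genes it called 18 and 0 for TAC in AAV9-GFP and AAV9-Cardinal hearts, against 24 and 9. Of all 16857 genes it called 989 higher and 1102 lower for TAC in AAV9-GFP hearts. For TAC in AAV9-Cardinal hearts it called 22 higher and 9 lower. Under it no list gene, Maob included, was called between viruses in TAC hearts, and Nox4 was at -0.052 there and at -0.26 for the difference of responses.

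Directions turned only for members that were not called in the comparison concerned. In AAV9-GFP hearts under TAC, Cat was at 0.0041 with at least 1 CPM in 4 mice, 0.0065 with the GC offset and 0.0059 with the replicate block, and from -0.072 to 0.044 with a mouse left out, and Hmox1 from -0.025 to 0.479. For TAC in AAV9-Cardinal hearts, Cyba was at 0.0047 with the GC offset, and with a mouse left out Cyba ran from -0.12 to 0.039, Sod3 from -0.083 to 0.106, Gpx3 from -0.085 to 0.183 and Hmox1 from -0.141 to 0.074. Between viruses in sham hearts, Sod2 was at -0.0036 with the GC offset, and with a mouse left out Cybb ran from -0.027 to 0.182, Sod2 from -0.015 to 0.032, Sod3 from -0.038 to 0.069, Cat from -0.0012 to 0.114, Hmox1 from -0.047 to 0.168 and Nqo1 from -0.093 to 0.108. Between viruses in TAC hearts, Cyba was at 0.026 with the GC offset and Cat at 0.025 with the replicate block, and with a mouse left out Cyba ran from -0.152 to 0.025, Cat from -0.055 to 0.019 and Hmox1 from -0.446 to 0.057. For the difference of responses, Cyba was at -0.0037 with the replicate block and ran from -0.052 to 0.125, and Hmox1 from -0.501 to 0.0022. The cause was not tested. Nox4 rests on 7 to 85 counts a mouse, which limits its precision.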
